A study of Mus musculus with 7 samples.

Results

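The collecting duct transcription factors described here are 10 genes, chosen by name from the 16272 genes measured: Foxi1, Hmx2, Dmrt2, Esrrg, Tfcp2l1, Tfap2b, Gata3, Hoxd8, Hoxb7 and Ehf. All 10 were found in the deposited matrix, and each was followed through the authors' 16 cell clusters, in and outside the collecting duct. The cells came from whole kidneys of 7 healthy C57BL/6 mice aged 4 to 8 weeks, of which 4 were labelled WT and 1 each Cdh16CremTmG, SclCremTmG and Nphs2CremTmG. Their sex was not given. In such reporter mice a Cre recombinase, driven by the promoter of the gene in the name, switches a membrane fluorescent reporter. Levels are UMI counts, that is counts of single captured RNA molecules, summed over the cells of a library and cluster and scaled to counts per 1000000 UMIs (CPM).

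The collecting duct is the last stretch of the renal tubule. Its principal cells reabsorb sodium and, under vasopressin, water, and its intercalated cells move acid and base. Type A intercalated cells secrete protons and carry the exchanger Slc4a1, while type B cells secrete bicarbonate and carry the exchanger Slc26a4 (pendrin). Foxi1, a forkhead factor, is required in mice for intercalated cells and activates genes of the proton pump and the anion exchangers. Tfcp2l1, of the grainyhead-like CP2 family, is needed in mice for the maturation of the duct's cell types. Gata3 is a zinc-finger factor that shapes the nephric duct in the embryo and also governs T lymphocytes.

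Clusters were the authors' own and were checked against marker genes. Cluster 7 was intercalated-like, with 4 of 5 intercalated markers highest there, and cluster 6 was principal-like, with 6 of 6. Clusters 5, 4 and 3 held 4 of 4 distal convoluted tubule, 5 of 5 loop of Henle and 5 of 6 proximal tubule markers at their highest. Cluster 8 carried markers of both duct cell types and keeps its number here. It had 110 cells and gave sums in 4 libraries, those with at least 5 of its cells, against 1729 cells and 7 libraries for the intercalated-like cluster and 870 cells and 6 libraries for the principal-like cluster. No source used here links the 7 libraries to the labelled mice, so they stand as 7 kidneys of a single group, and 974 cell barcodes occurred in more than 1 library. Libraries held 1383 to 14136 cells and 4217169 to 49997616 UMIs. A cell in cluster 8 had a median of 5330 UMIs, against 3917 in the intercalated-like cluster and 2894.5 in the principal-like one.

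Foxi1, Hmx2 and Dmrt2 had their RNA almost wholly in clusters 7 and 8. Hmx2 is a homeobox gene known from development of the inner ear in mice, and Dmrt2 is a DM-domain gene known from the embryonic somite. On GRCm38, Foxi1 (ENSMUSG00000047861) lies at chr11:34204338-34208089 on the minus strand, Hmx2 (ENSMUSG00000050100) at chr7:131548773-131558014 on the plus strand and Dmrt2 (ENSMUSG00000048138) at chr19:25672411-25678991 on the plus strand. The 250 bases before their start sites are shown, as RefSeq gives them on GRCm38.p6, because these genes were high in the same clusters. The windows are chr11:34208090-34208339 (minus strand) for Foxi1, chr7:131548507-131548756 (plus strand, the first of 2 start sites) for Hmx2 and chr19:25672161-25672410 (plus strand) for Dmrt2. Capitals mark matches, on either strand, to motifs searched for.
Foxi1: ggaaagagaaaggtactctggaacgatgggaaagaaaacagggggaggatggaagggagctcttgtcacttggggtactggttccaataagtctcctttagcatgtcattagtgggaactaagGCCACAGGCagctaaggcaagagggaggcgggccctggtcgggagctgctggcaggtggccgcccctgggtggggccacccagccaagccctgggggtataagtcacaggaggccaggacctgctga
Hmx2: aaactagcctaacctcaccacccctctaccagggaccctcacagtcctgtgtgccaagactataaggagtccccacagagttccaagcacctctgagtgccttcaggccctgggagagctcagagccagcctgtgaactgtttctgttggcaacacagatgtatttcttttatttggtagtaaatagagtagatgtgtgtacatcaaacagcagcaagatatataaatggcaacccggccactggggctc
Dmrt2: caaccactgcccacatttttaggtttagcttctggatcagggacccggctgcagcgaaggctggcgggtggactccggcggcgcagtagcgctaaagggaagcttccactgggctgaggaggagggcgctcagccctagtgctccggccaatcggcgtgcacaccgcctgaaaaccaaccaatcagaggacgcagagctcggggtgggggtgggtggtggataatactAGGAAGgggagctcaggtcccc
None of these windows held the forkhead core TAAACA, the GATA letters AGATAA or the homeobox core TAATTA, which stood in 12%, 9.99% and 4.84% of 32851 windows of the same length. The capitals in Foxi1 are 1 match to the AP-2 letters GCCNNNGGC, found in 13.7% of windows, and those in Dmrt2 are 1 match to the ETS letters AGGAAG, found in 29.5%. The window of the second Hmx2 start site (chr7:131554043-131554292, plus strand), not printed here, also held 1 match to AGGAAG. The motifs searched for do not overlap each other here, and a match is a string of letters, not a shown binding site.

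Foxi1 had 683, 443, 325 and 708 CPM in cluster 8 (libraries 1, 2, 5 and 6), and a lowest, median and highest value of 378, 496 and 686 CPM over the 7 libraries in intercalated-like cells. In the principal-like cells those values were 0, 5.5 and 9.05 CPM. Every library of clusters 7 and 8 lay far above every principal-like library, and the 2 clusters with the highest levels overlapped each other. Clusters 7 and 8 held 85.5% and 8.48% of all Foxi1 UMIs. The next mean, 10.9 CPM in macrophage-like cells, came from 11 UMIs, 10 of them in library 5.

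Hmx2 ran from 450 through a median of 554 to 813 CPM in intercalated-like cells, with 260, 426, 506 and 482 CPM in cluster 8 (libraries 1, 2, 5 and 6). Its mean was at most 5.66 CPM in any other cluster. Dmrt2 ran from 43.2 through 76.1 to 93.7 CPM in intercalated-like cells, with 91.5, 53.2, 24.1 and 56.4 CPM in cluster 8, and its mean was at most 1.27 CPM elsewhere. These genes therefore stood apart from all other clusters in every library of clusters 7 and 8. Of their UMIs, cluster 7 held 86.7% (Hmx2) and 89.3% (Dmrt2).

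**Figure D1:**
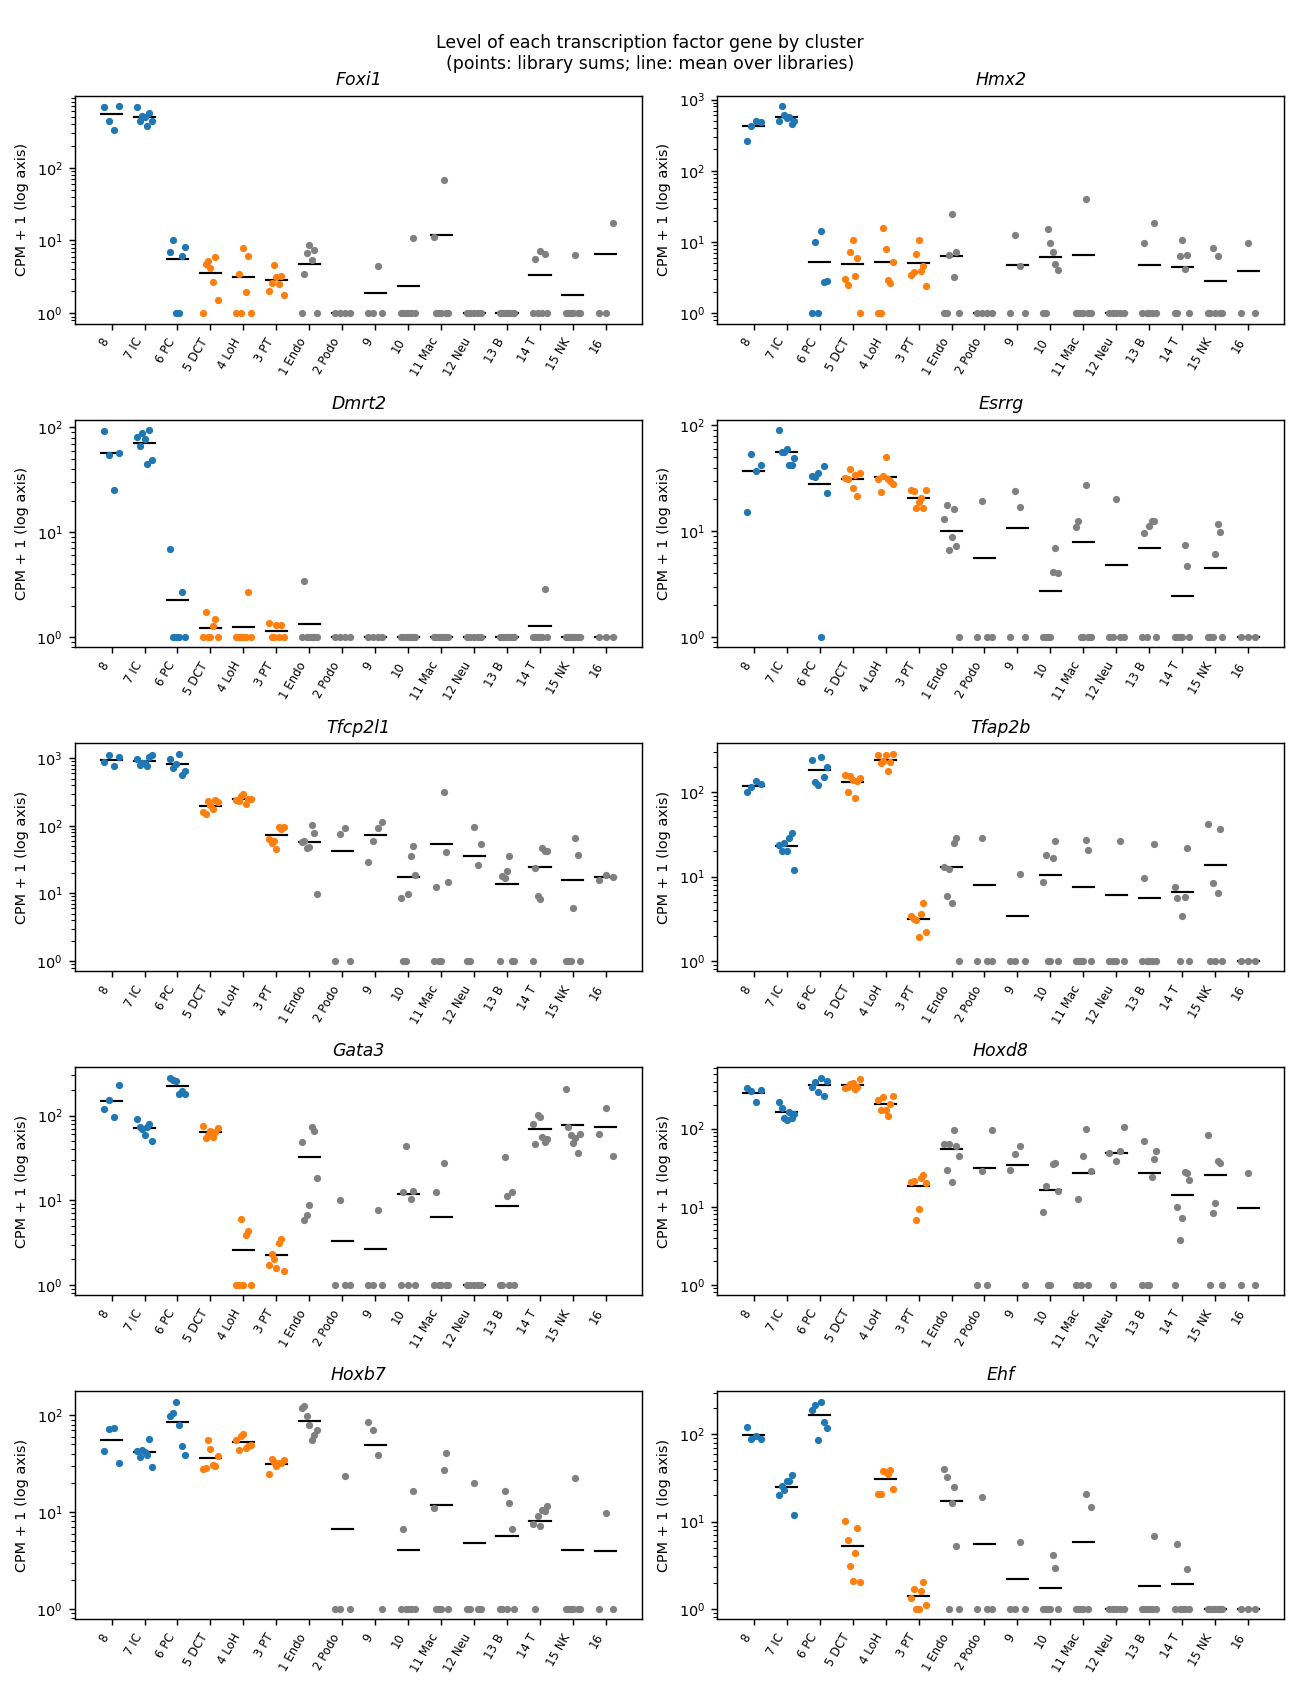
Level of each gene in the 16 clusters, as CPM + 1 on a log axis, with a point for each library sum and a line at the mean; blue marks clusters 8, 7 and 6, orange clusters 5, 4 and 3, and grey all others. Foxi1, Hmx2 and Dmrt2 are high in clusters 8 and 7 alone, Tfcp2l1 is high in clusters 8, 7 and 6, and Tfap2b is low in cluster 7 between high levels in clusters 8, 6, 5 and 4.

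To allow for depth, each cell was also thinned to 1000 UMIs, which leaves out 2494 shallower cells. Foxi1 then had a UMI in 50.9% of cluster 8 cells (exact binomial 95% interval 41.2% to 60.6%) and in 34.3% of intercalated-like cells (32% to 36.6%). Averaged over libraries, these shares were 45.6% ± 20.4% (SD, n = 4) and 34.9% ± 5.14% (SD, n = 7), and 28.1% and 28.3% at 700 UMIs. The log2 fold of cluster 8 over intercalated-like cells was -0.23 ± 0.19 (edgeR adjusted p = 0.566; higher in 2 of 4 libraries). Over all thinned cells, the share was 0.238% in principal-like cells, 0.213% in proximal tubule-like cells and 0.196% in the immune clusters 11 to 15, which should lack the gene. The principal-like and proximal tubule-like shares are thus at the level seen in cells that should lack the gene. Before thinning, median depths were 3973 UMIs in these intercalated-like cells and 1910.5 in the immune cells, and intervals cover counting error only.

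The intercalated-like cells held both acid- and base-secreting types, and Hmx2 and Dmrt2 divided between them. Cells were called type A where UMIs of Slc4a1, Aqp6, Kit and Adgrf5 exceeded those of Slc26a4, Insrr and Slc4a9, and type B where they were fewer, so that no gene of the set entered the split. It gave 698 type A and 899 type B cells, with 132 cells of neither. Type A cells had a median of 3607.5 UMIs, against 4767 in type B cells. Of the 10 genes, 8 passed the filter on low counts in this comparison, and 5 of these passed the test, 4 higher and 1 lower in type A, where 19.7% of 4134 genes tested did (9.75% higher, 9.92% lower).

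Dmrt2 had a lowest, median and highest value of 116, 168 and 224 CPM in type A cells, against 0, 1.26 and 6.57 CPM in type B cells. No library overlapped, and the log2 fold of type A over type B was 6.15 ± 0.25 (SE; edgeR adjusted p = 3.6e-28; higher in 7 of 7 libraries). Hmx2 went the other way, with 0, 8.60 and 46.4 CPM in type A cells, against 740, 827 and 1201 CPM in type B cells. Its log2 fold was -5.56 ± 0.20 (edgeR adjusted p = 8.22e-31; lower in 7 of 7 libraries). Foxi1, in contrast, had 361, 493 and 672 CPM in type A cells, against 339, 512 and 707 CPM in type B cells, at a log2 fold of 0.02 ± 0.09 (edgeR adjusted p = 0.911; higher in 1 of 7 libraries), with a sign that changed under other settings. The ranges of Foxi1 overlapped almost entirely.

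**Figure D2:**
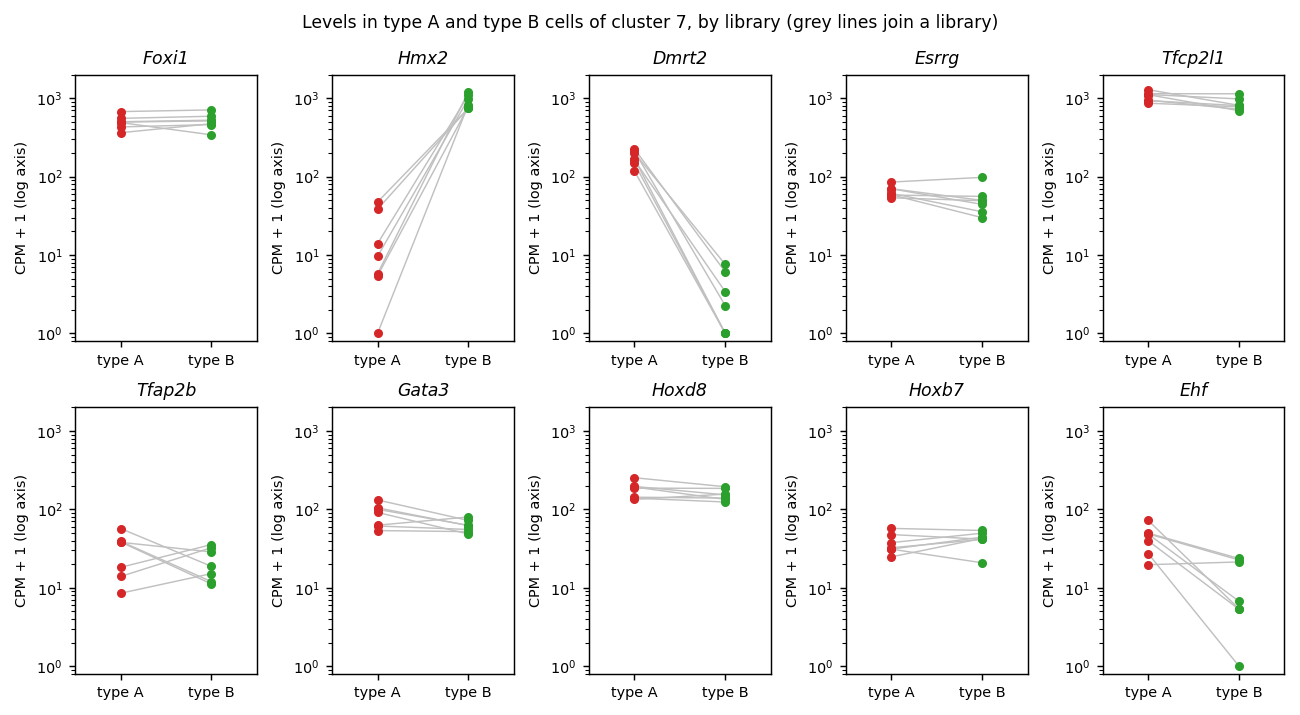
Level of each gene in type A (left, red) and type B (right, green) cells of cluster 7, as CPM + 1 on a log axis, with a point for each of 7 libraries and grey lines joining a library. Dmrt2 is at 116 CPM or more in type A and at most 6.57 CPM in type B, Hmx2 is at most 46.4 CPM in type A and 740 CPM or more in type B, and Foxi1 overlaps between them.

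The division was also seen cell by cell. Among the 1729 intercalated-like cells, 780 had a UMI of Hmx2 alone, 297 of Dmrt2 alone, 11 of both and 641 of neither. The 11 cells with both are 0.636% of cells, where the product of the separate shares is 8.15%. Thinned to 1000 UMIs, 0 of 1691 cells had both, which allows a share of up to 0.177%, against a product of 1.82%. Foxi1, by comparison, was found together with Hmx2 in 610 cells (35.3%, with a product of 32.5%) and with Dmrt2 in 250 cells (14.5%, with a product of 12.7%). After thinning, an Hmx2 UMI was in 1.31% of type A cells (0.601% to 2.47%) and in 44.2% of type B cells (40.9% to 47.5%), and a Dmrt2 UMI was in 15.6% of type A cells (12.9% to 18.5%) and in 0.226% of type B cells (0.0274% to 0.814%). Immune cells had Hmx2 at 0.489% (0.235% to 0.897%) and Dmrt2 at 0.0489%, so the Hmx2 interval of type A cells overlaps that of the background.

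**Figure D3:**
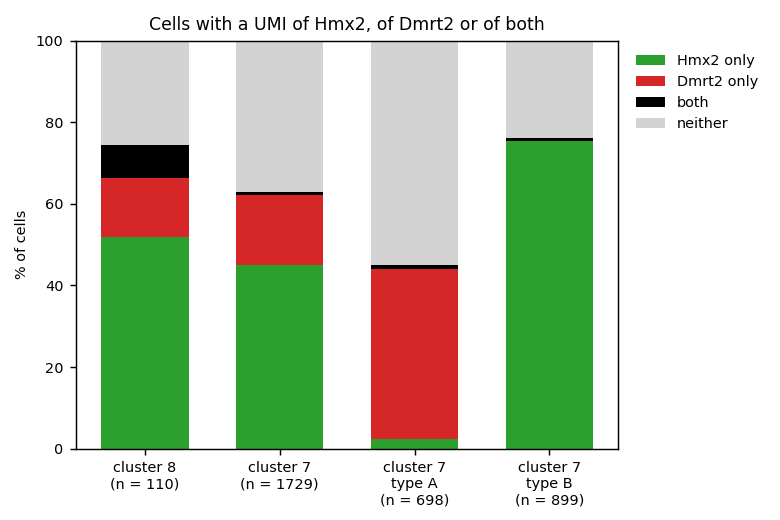
Share of cells with a UMI of Hmx2 alone (green), Dmrt2 alone (red), both (black) or neither (grey), on the y axis in percent, in cluster 8, in cluster 7 and in its type A and type B cells, unthinned. Cells with both are 8.18% of cluster 8 and 0.636% of cluster 7.

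Esrrg, Gata3 and Tfcp2l1 passed the test as higher in type A cells, with log2 folds under 1. Esrrg, an orphan nuclear receptor that drives genes of oxidative metabolism, had 52.6, 60 and 84.1 CPM in type A cells, against 28.9, 48.1 and 96.6 CPM in type B cells (lowest, median, highest), a log2 fold of 0.56 ± 0.17 (edgeR adjusted p = 0.0152). Gata3 had 52.6, 90.3 and 131 CPM in type A cells, against 47.5, 60.9 and 78.9 CPM in type B cells, a log2 fold of 0.55 ± 0.15 (edgeR adjusted p = 0.00709). The type A ranges of Esrrg, Gata3 and Tfcp2l1 overlapped those of type B. For Tfcp2l1 they were 861 to 1279 CPM in type A and 691 to 1135 CPM in type B cells. Without library 5 the adjusted p was 0.125 for Esrrg and 0.107 for Gata3, and without library 6 it was 0.0961 for Esrrg. Tfcp2l1 was higher in type A in 7 of 7 libraries, at 1052 ± 147 CPM, against 843 ± 158 CPM in type B cells (SD, n = 7 each; log2 fold 0.33 ± 0.08, edgeR adjusted p = 0.00184). DESeq2 called neither Esrrg (adjusted p = 0.236) nor Gata3 (adjusted p = 0.188). Without library as a block in the fit, edgeR did not call Tfcp2l1 (adjusted p = 0.132), Esrrg (0.221) or Gata3 (0.118). With no filter on low counts, the edgeR adjusted p of Esrrg was 0.0714. Hoxd8 (log2 fold 0.22, edgeR adjusted p = 0.178) and Hoxb7 (-0.16, 0.636) did not pass the test.

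Ehf and Tfap2b were too low for the filter. Ehf, an ETS factor of epithelia, had 18.7, 47.4 and 71.3 CPM in type A cells, against 0, 5.72 and 22.6 CPM in type B cells (lowest, median, highest). A fit with no filter gave a log2 fold of 1.61 ± 0.24 for Ehf (edgeR adjusted p = 1.83e-09) and 0.69 ± 0.24 for Tfap2b (adjusted p = 0.0582). In type A and type B cells 123 and 72 UMIs of Ehf were counted.

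Tfcp2l1 was present in all 3 duct clusters at overlapping levels. It lies at chr1:118627945-118685168. In cluster 8 it had 873, 1108, 771 and 1041 CPM (libraries 1, 2, 5 and 6). Its lowest, median and highest values were 776, 860 and 1129 CPM in intercalated-like cells and 568, 775 and 1161 CPM in principal-like cells. These 3 groups overlapped, and the log2 fold of intercalated-like over principal-like cells was 0.35 ± 0.14 (edgeR adjusted p = 0.0567; higher in 4 of 6 libraries). The result stayed short of the threshold in 12 of 15 alternatives. Tfcp2l1 passed with no filter on low counts (edgeR adjusted p = 0.0300), when cells were thinned to 1000 UMIs (0.0213) and without library 4 (0.0140).

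Tfcp2l1 was lower in the other tubule segments. All 6 principal-like libraries lay above the distal convoluted tubule-like ones (147 to 243 CPM, median 199.5) and the loop of Henle-like ones (207 to 291 CPM, median 247). Both of these lay above proximal tubule-like cells, at 71.5 ± 20.8 CPM (SD, n = 7). After thinning, 7.71% of proximal tubule-like cells (7.38% to 8.04%) and 2.30% of immune cells (1.69% to 3.04%) had a UMI, from median depths of 2390 and 1910.5 UMIs. Because the proximal tubule-like cluster is so large, it still held 28.0% of all Tfcp2l1 UMIs.

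Esrrg, at chr1:187608791-188214885, had a shallow profile over the tubule. Its mean was 36.1 ± 16.4 CPM in cluster 8 (n = 4), 55.7 ± 16.6 in intercalated-like cells (n = 7), 26.7 ± 14.4 in principal-like cells (n = 6), 30.3 ± 5.85 in distal convoluted tubule-like, 31.5 ± 8.62 in loop of Henle-like and 19.8 ± 3.65 in proximal tubule-like cells (SD, n = 7 each). Every neighbour in the order of these levels overlapped the next. Within libraries, Esrrg was higher in intercalated-like than in principal-like cells in 6 of 6 (log2 fold 0.90 ± 0.23, edgeR adjusted p = 0.002), a call that was lost when cells were thinned to 1000 UMIs (0.38, adjusted p = 0.458).

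Gata3, Ehf and Hoxb7 were highest, within the duct, in principal-like cells. Gata3 (ENSMUSG00000015619) lies at chr2:9857078-9890034. It had 120, 151, 96.3 and 231 CPM in cluster 8 (libraries 1, 2, 5 and 6), 49.8, 72.1 and 89.7 CPM in intercalated-like cells and 178, 227 and 280 CPM in principal-like cells (lowest, median, highest). The intercalated-like libraries all lay below the principal-like ones, with a log2 fold of -1.45 ± 0.18 (edgeR adjusted p = 9.05e-09). Distal convoluted tubule-like cells had 53.5, 62.8 and 74.3 CPM, overlapping the intercalated-like range (log2 fold of intercalated-like over distal convoluted tubule-like cells -0.08 ± 0.17, edgeR adjusted p = 0.742).

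Gata3 was nearly absent from loop of Henle-like cells. Distal convoluted tubule-like cells stood at 62.6 ± 7.74 CPM, against 1.60 ± 2.09 CPM in loop of Henle-like cells (SD, n = 7 each), a log2 fold of 5.30 ± 0.37 (edgeR adjusted p = 1.68e-15; higher in 7 of 7 libraries). The thinned shares were 5.71% (5.22% to 6.24%) of distal convoluted tubule-like and 0.201% (0.0416% to 0.588%) of loop of Henle-like cells, with 0.189% in proximal tubule-like cells. Gata3 was also present outside the kidney epithelium, at 67.7 ± 23.0 CPM in T lymphocyte-like and 75.9 ± 58.4 CPM in natural killer-like cells (SD, n = 7 each), a range that overlaps intercalated-like cells. Gata3 stood at 71.8 ± 46.3 CPM in cluster 16 (SD, n = 3), a cluster given no type name here. In endothelial-like cells it varied from 4.81 to 71.8 CPM, and markers of urothelial (4 of 4), mural (4 of 4) and fibroblast cells (3 of 4) were highest in that cluster too. Their part in its Gata3 and Hoxb7 levels was not tested.

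Ehf (ENSMUSG00000012350, chr2:103263433-103303278) had 120, 88.7, 96.3 and 87.2 CPM in cluster 8 (libraries 1, 2, 5 and 6), 10.9, 24.8 and 33.4 CPM in intercalated-like cells and 86.0, 164 and 237 CPM in principal-like cells (lowest, median, highest). Intercalated-like cells lay apart below principal-like ones, by a log2 fold of -2.41 ± 0.21 (edgeR adjusted p = 1.17e-12). Ehf skipped the distal convoluted tubule, where it had 1.02, 3.32 and 9.29 CPM, and returned in loop of Henle-like cells at 19.9, 34.2 and 38.6 CPM. These groups did not overlap (log2 fold -2.70 ± 0.28, edgeR adjusted p = 3.87e-10). Proximal tubule-like cells had at most 1.05 CPM in any library. The thinned shares followed the same order, at 14.3% of principal-like (12% to 16.8%), 0.471% of distal convoluted tubule-like (0.333% to 0.646%), 3.43% of loop of Henle-like (2.56% to 4.48%) and 0.0683% of proximal tubule-like cells.

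Hoxb7, whose promoter is widely used to drive transgenes in the ureteric bud, lies at chr11:96286623-96290162 and was found in every tubule cluster. Its lowest, median and highest values were 28.0, 40.3 and 55.7 CPM in intercalated-like cells, 38.1, 88.2 and 138 in principal-like cells, 26.8, 29.6 and 54.4 in distal convoluted tubule-like cells, 42.3, 47.8 and 63.4 in loop of Henle-like cells and 23.7, 31.2 and 34.7 in proximal tubule-like cells. The principal-like range lay apart above the proximal tubule-like one and overlapped the other 3. Its highest mean was in endothelial-like cells, at 86.2 ± 27.7 CPM (SD, n = 7), overlapping the principal-like range. Proximal tubule-like cells held 55.4% of its UMIs. The intercalated-like to principal-like difference (log2 fold -0.64 ± 0.19, edgeR adjusted p = 0.00806) had an adjusted p of 0.0945 without library 2 and of 0.102 when cells were thinned.

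Tfap2b and Hoxd8 were genes of the distal tubule as much as of the duct. Tfap2b encodes AP-2 beta, whose loss in mice leads to renal cysts, and lies at chr1:19208914-19238576. It had 98.5, 115, 132 and 123 CPM in cluster 8 (libraries 1, 2, 5 and 6), 10.9, 22.4 and 31.4 in intercalated-like cells, 120, 173 and 257 in principal-like cells, 84.5, 137 and 157 in distal convoluted tubule-like cells and 179, 232 and 283 CPM in loop of Henle-like cells. The intercalated-like libraries lay apart below all of these. Proximal tubule-like cells had 0.908 to 3.86 CPM. Its highest mean was in loop of Henle-like cells, outside the duct, and 57.3% of its UMIs were in the distal convoluted tubule-like cluster.

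Hoxd8, a homeobox gene of the Hoxd cluster at chr2:74704615-74707933, had 331, 302, 217 and 308 CPM in cluster 8 (libraries 1, 2, 5 and 6), 128, 154 and 221 in intercalated-like cells, 257, 367 and 449 in principal-like cells, 321, 340 and 429 in distal convoluted tubule-like cells, 145, 208 and 262 in loop of Henle-like cells and 5.71, 19.5 and 24.5 CPM in proximal tubule-like cells. Proximal tubule-like cells lay apart below all the others, and the intercalated-like range overlapped those of loop of Henle-like cells and cluster 8. Intercalated-like cells lay apart below distal convoluted tubule-like cells, by a log2 fold of -1.42 ± 0.16 (edgeR adjusted p = 9.82e-10).

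The duct cell types and the neighbouring segments were compared in a single fit of clusters 3 to 8, in which all 10 genes passed the filter. The clusters were made by the authors from the counts tested here, so these tests describe size and evenness over libraries and are not independent evidence of the types. Of intercalated-like against principal-like cells, 9 of 10 genes passed (4 higher, 5 lower), where 30.1% of 8985 genes tested did (16.5% higher, 13.6% lower). Dmrt2 was higher by a log2 fold of 5.55 ± 0.41, Hmx2 by 7.49 ± 0.38 and Foxi1 by 6.48 ± 0.27 (edgeR adjusted p at most 4.31e-15), and Tfap2b was lower, at -2.76 ± 0.20 (adjusted p = 5.25e-15). The principal-like sums held 9 Hmx2 UMIs, and the size of the Hmx2 fold depended on them: it was 7.16 to 7.92 on leaving out libraries and 11.70 when thinned, where 0 of 840 principal-like cells had a Hmx2 UMI.

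Of intercalated-like against distal convoluted tubule-like cells, 8 genes passed (6 higher, 2 lower), where 42.1% of genes did (20.9% higher, 21.2% lower). Ehf (2.37 ± 0.27) and Tfcp2l1 (1.98 ± 0.14) were higher in intercalated-like cells and Tfap2b lower (-2.65 ± 0.18). Of principal-like against distal convoluted tubule-like cells, 4 passed and were higher, where 31.1% of genes passed (14.6% higher, 16.4% lower). These were Ehf (4.77 ± 0.24), Tfcp2l1 (1.63 ± 0.15), Gata3 (1.37 ± 0.18) and Hoxb7 (0.70 ± 0.18), with edgeR adjusted p from 7.98e-20 to 0.0024. For Hoxb7 the adjusted p was 0.0627 without library 2. Hoxd8 was at -0.43 (edgeR adjusted p = 0.0578, and 0.0213 without library 6), and did not pass in 10 of 15 alternatives. Its mean levels were nearly equal, at 356 ± 72.9 CPM in principal-like and 359 ± 38.0 CPM in distal convoluted tubule-like cells (SD). By CPM, which carries no TMM scaling, it was higher in principal-like cells in 4 of 6 libraries.

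Of distal convoluted tubule-like against loop of Henle-like cells, 4 passed (2 higher, 2 lower), where 18.2% of genes did (8.96% higher, 9.23% lower). Besides Gata3 and Ehf these were Hoxd8 (1.02 ± 0.16, edgeR adjusted p = 4.35e-06) and Tfap2b (-0.71 ± 0.15, adjusted p = 0.000354). Of loop of Henle-like against proximal tubule-like cells, 6 were higher and 0 lower, where 55.2% of genes passed (25.9% higher, 29.3% lower). Tfap2b led at 6.34 ± 0.19, then Ehf at 5.42 ± 0.31 and Hoxd8 at 3.25 ± 0.18 (edgeR adjusted p at most 3.37e-19), while Hoxb7 was at 0.48 ± 0.16 (adjusted p = 0.00967). The call on Esrrg (0.45 ± 0.20, adjusted p = 0.047) was lost in 9 of 15 alternatives, among them leaving out library 3, 4, 5 or 6 (adjusted p 0.0781, 0.183, 0.056 and 0.1). These comparisons share groups, so each gene's values are given side by side and not as separate evidence.

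**Figure D4:**
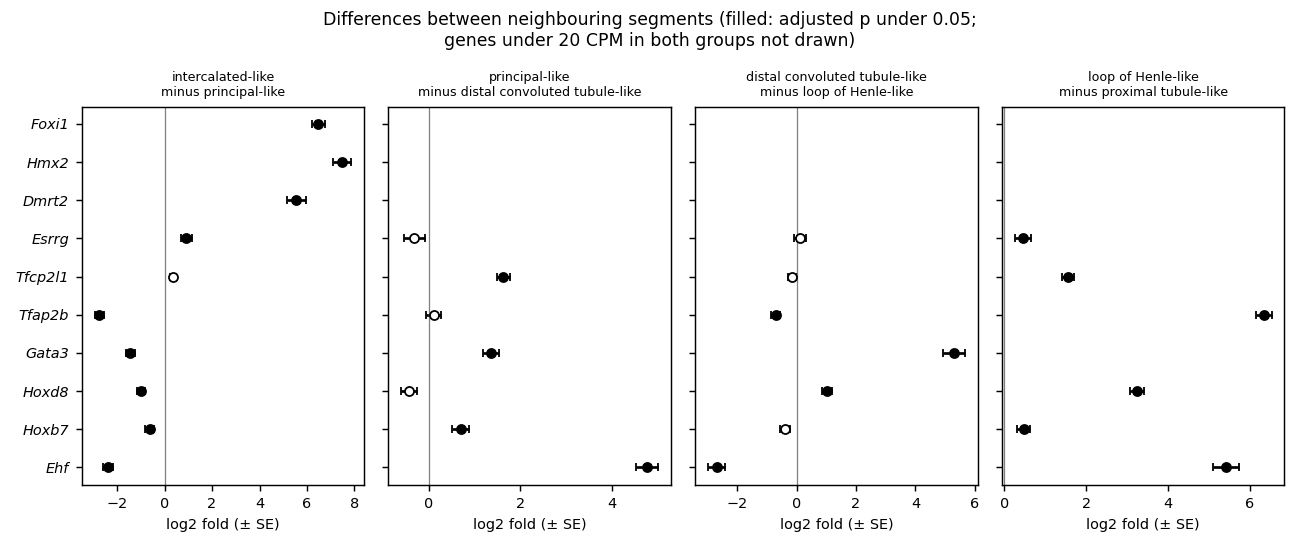
Log2 fold of each gene between the duct cell types (first panel) and between neighbouring segments (x axis, with ± 1 SE), filled where the edgeR adjusted p is under 0.05; genes under 20 CPM in both groups are not drawn. The sets of filled genes differ between panels but share members, and Ehf is filled in every panel (-2.41, 4.77, -2.70 and 5.42). Gata3 is at 5.30 between distal convoluted tubule-like and loop of Henle-like cells, and Tfap2b at 6.34 between loop of Henle-like and proximal tubule-like cells.

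Cluster 8 carried Foxi1, Hmx2 and Dmrt2, with more Tfap2b and Ehf than intercalated-like cells. Against intercalated-like cells, 2 genes were higher and 0 lower, where 8.29% of genes passed (2.98% higher, 5.31% lower). These were Tfap2b (1.96 ± 0.31, edgeR adjusted p = 2.87e-05) and Ehf (1.47 ± 0.33, adjusted p = 0.0028), each higher in 4 of 4 libraries. Gata3 was at 0.78 ± 0.26 (adjusted p = 0.0532; higher in 4 of 4 libraries), and leaving out library 7 brought the adjusted p to 0.0364 while leaving out library 6 brought the fold to 0.44. Gata3 also passed with DESeq2 size factors in edgeR (0.0312), without the block (0.0480) and on the compared clusters alone (0.00499). Hoxd8 was at 0.55 ± 0.24 (edgeR adjusted p = 0.169; higher in 4 of 4 libraries), and passed only on the compared clusters alone (0.00974). Hmx2 was at -0.64 (adjusted p = 0.115) and passed as lower in 4 of 15 alternatives, with an adjusted p of 0.0128 with no filter, 0.0273 when thinned (fold -1.01), 0.00349 on the compared clusters alone and 0.0342 without library 4. Against principal-like cells, 3 were higher and 1 lower, where 8.45% of genes passed (4.6% higher, 3.85% lower). Hmx2 was higher by 6.85 ± 0.45, Foxi1 by 6.25 ± 0.31 and Dmrt2 by 4.89 ± 0.59 (edgeR adjusted p at most 2.85e-08). The lower call on Ehf (-0.94 ± 0.29, adjusted p = 0.0332) was lost in 7 of 15 alternatives: without library 2, 5 or 6 (0.127, 0.0676 and 0.115), by DESeq2 (0.0674), with at least 20 cells a sum (0.156), without the block (0.147) and when thinned (0.375). Tfap2b was at -0.79 (adjusted p = 0.0606) and passed as lower in 6 of the 15, with adjusted p from 0.0150 with no filter to 0.0479 without library 5. Gata3 was at -0.67 ± 0.25 (edgeR adjusted p = 0.0952; lower in 3 of 4 libraries) and did not pass in 12 of the 15. It passed as lower with no filter (0.0258), on the compared clusters alone (0.0425) and without library 6 (0.0277).

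By the same split, cluster 8 held 44 type A, 64 type B and 2 cells of neither. Of its type A cells 22 had a Dmrt2 UMI and 11 an Hmx2 UMI, and of its type B cells 3 had Dmrt2 and 53 Hmx2. A UMI of both was found in 9 cells, 8.18%, where the product of shares is 13.6%, and thinning left 0 of 110, which allows a share of up to 2.73%, above the thinned product of 1.74%. Summed principal markers stood at 4022 to 7264 CPM in cluster 8, against 59.1 to 236 CPM in intercalated-like cells and 8506 to 18577 CPM in principal-like cells. Summed intercalated markers stood at 6804 to 9130 CPM in cluster 8. Among its cells, 9 of 110 were in the 6% with the highest doublet scores of their library, against 10.5% of cluster 7 and 5.40% of cluster 6, and without all such cells the log2 folds of cluster 8 over intercalated-like cells were 2.01 for Tfap2b (edgeR adjusted p = 1.92e-05) and 1.36 for Ehf (adjusted p = 0.00893).

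Relatives of the 10 genes were followed as well. Of 42 relatives listed, 31 were in the matrix and 21 passed the filter. Between intercalated-like and principal-like cells 2 of these were higher and 11 lower (16.5% and 13.6% of all genes), with a median log2 fold of -0.68, against 0.01 over all genes. Gata2, the paralogue of Gata3, averaged 41.9 ± 12.5 CPM in the intercalated-like cluster (n = 7), against 242 ± 61.0 CPM in the principal-like cluster (SD, n = 6), a log2 fold of -2.19 ± 0.21 (edgeR adjusted p = 1.38e-11). Unlike Gata3, it was at 6.48 ± 5.08 CPM in distal convoluted tubule-like cells. Elf5, an ETS relative of Ehf, was at 28.3 ± 17.7 CPM in principal-like cells and at 1.76 ± 3.52 CPM in cluster 8 (n = 4), with a mean of at most 0.672 CPM in clusters 7, 5, 4 and 3. Tfap2a had its highest tubule mean in principal-like cells (37.8 ± 14 CPM, n = 6). Hoxb9 (153 ± 65.1 CPM) and Hoxd4 (117 ± 31.5 CPM) were likewise highest there. Hoxd10 was highest in distal convoluted tubule-like cells (56.0 ± 8.07 CPM, n = 7), as Hoxd8 was.

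The orphan receptors related to Esrrg had other patterns. Esrra ran highest in cluster 8 (135 ± 33.6 CPM, n = 4), and Esrrb in loop of Henle-like cells (39.4 ± 9.39 CPM, n = 7), with 7.94 ± 6.49 CPM in intercalated-like cells (n = 7) and a mean of 1.3 CPM in the principal-like cluster. Neither CP2 relative of Tfcp2l1, Tfcp2 or Ubp1, passed the test between intercalated-like and principal-like cells.

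Known targets and other regulators gave the setting. All 6 listed Foxi1 targets, among them the proton pump subunit Atp6v1b1, were higher in intercalated-like than in principal-like cells, with a median log2 fold of 4.70, and all 10 listed principal cell genes were lower, with a median of -5.65. Several of these genes are also the markers that named the clusters. Between type A and type B cells, Atp6v0a4 (579 ± 101 CPM in type A and 603 ± 116 CPM in type B, SD, n = 7 each) and Atp6v1a did not pass the test, while Atp6v1b1 was higher in type A (542 ± 83.1 CPM, against 396 ± 64.3 CPM in type B; log2 fold 0.46 ± 0.08, edgeR adjusted p = 2.62e-05). Of 16 other tubule transcription factor genes tested, 0 were higher and 8 lower in intercalated-like than in principal-like cells (16.5% and 13.6% of all genes), and 9 were higher and 4 lower in principal-like than in distal convoluted tubule-like cells (14.6% and 16.4% of all genes). Their list shares Gata2, Elf3, Elf5 and Grhl2 with the relatives above, so the counts are not of separate sets. Lhx1 and Emx1, homeobox genes, were at 261 ± 47.1 and 252 ± 27.6 CPM in distal convoluted tubule-like cells (SD, n = 7 each). Emx2 was higher in type A than in type B cells (57.9 ± 8.62 CPM in type A and 27.6 ± 7.16 CPM in type B, SD, n = 7 each; log2 fold 1.23 ± 0.20, edgeR adjusted p = 2.17e-06).

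Likeness of pattern was taken as Pearson's r of mean log2(CPM + 10) over the 16 clusters, among 6615 genes with at least 50 CPM in a cluster, and is a description. Clusters share libraries and their members differ in depth. Nearest to Foxi1 were Slc26a4 (0.998), Slc4a9, Aqp6 and Slc4a1, and nearest to Dmrt2 were Slc4a1 (0.999), Aqp6, Cpsf4l and Guca2a. Nearest to Hmx2 were the type A gene Slc4a1 (0.997) and Aqp6, although within cluster 7 Hmx2 was in type B cells, since this measure cannot see inside a cluster. Tfcp2l1 was most like Rragd (0.982), Epb41l1, Tmprss2 and Atp6v1f, and Esrrg most like Crb3 (0.960), Deptor, C920021L13Rik and Pde4c. Tfap2b was most like Gm13111 (0.973), Ninl, Fgf9 and the potassium channel gene Kcnj1, and Hoxd8 most like Grb14 (0.976), Mecom, Pou3f3 and Hoxd10. Hoxb7 was most like Smtn (0.976), Lzts2, Lmo7 and Impad1, Ehf most like Gstm2 (0.968), Dsp and Tpd52l1, and Gata3 most like Ipcef1, Pde3b, Prkacb and Spata13, none above 0.866. Among the 10 genes, Hmx2 and Dmrt2 (0.997) and Foxi1 and Hmx2 (0.995) were closest, and Dmrt2 and Tfap2b (0.298) least alike.

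Genes annotated over Esrrg, Gata3, Hmx2, Hoxd8 and Tfcp2l1 on the opposite strand, among them Fgfr2 over Hmx2 and Hoxd3os1 over Hoxd8, could share reads with them, as the strand setting of the counting is not given in the sources used here. On the same strand, 9230102O04Rik overlaps Gata3, while Gm38315 and Gm23497, both absent from the matrix, overlap Esrrg and Tfcp2l1.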

How the data were processed

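Kidney cells from 7 mice were profiled by 3′ single-cell RNA sequencing on droplets. The deposited values are UMI counts per gene and cell, and the submitters' processing notes name Cell Ranger 1.3, STAR and the builds mm10 and GRCm38.p4. The deposited matrix held 43745 cells with 707 to 15000 UMIs, where 57979 cells are stated for the study. The filtering, the clustering and the treatment of doublets and strand are not given in the sources used here. The cluster of each cell is the authors' own.

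For each cluster, the counts of a library's cells were added up, given 5 cells or more. Library identity came from the barcode suffix, and all sums of a library come from the same kidney, so library was a block in every main fit. Sums were tested with edgeR 4.0.16 (R 4.3.3; TMM scaling, filterByExpr, quasi-likelihood F test), in a fit of clusters 3 to 8 and in a fit of type A and type B sums within cluster 7, with Benjamini-Hochberg adjustment over all genes tested and a threshold of 0.05. The standard error is the log2 fold divided by the root of F. The script was tested on simulated counts. Library depth ranged from 4217169 to 49997616 UMIs. Shares of cells with a UMI were taken after thinning each cell to 1000 UMIs, with exact binomial intervals at the 95% level. Scanpy 1.11.5 gave Scrublet doublet scores, and cells were not removed in the main fits. Alternatives were DESeq2 1.42.0, its size factors, no filter on low counts, sums of at least 20 cells, no block, thinned cells, removal of the highest doublet scores, fits of the compared clusters alone, other splits of the types and leaving out each library. No fold is given where both groups averaged under 20 CPM.

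The 10 genes and all lists were chosen with earlier results of these data known. Genes named besides the 10 are their family relatives with at least 20 CPM in a cluster from 3 to 8, listed targets and regulators, and the 4 genes most like each member, of which 1 is not reported here. Promoter rows were found for 8 of the 10 genes.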

Additional observations from a re-analysis of the deposited data

Results flagged for a closer look

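Within each tubule cluster and each intercalated type, the library farthest from the others was compared with the range of its group. Of 58 groups tested, 5 held a library that stood apart. Chance alone gives about 1 in 20 where groups are independent and values normally spread. Type A and type B cells are part of cluster 7, so the groups are not all independent. Hmx2 stood at 813 CPM in intercalated-like cells of library 2, where the other 6 libraries had 450 to 601 CPM. Esrrg stood at 89.7 CPM in intercalated-like cells of library 1, against 41.1 to 59.3 CPM in the others, and at 96.6 CPM in type B cells of the same library, against 28.9 to 54.8 CPM. In loop of Henle-like cells Esrrg stood at 49.7 CPM in library 4, against 22.4 to 32.4 CPM. Hoxb7 was low in type B cells of library 7, at 19.8 CPM, against 40.3 to 52.8 CPM. The cause of these values was not tested.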

How the results depend on the processing

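Of 1022 log2 folds of the 10 genes recomputed under the alternatives, 939 kept their direction and their side of the threshold, 29 lost a call, 26 gained one and 28 changed sign, none of the last past the test in either fit. Of 262 counts and shares, 37 moved. The cause of each change was not tested, other than that thinning and stricter cell minimums leave fewer counts or sums. Thinning cells to 1000 UMIs brought the genes called to 1350 (intercalated-like minus principal-like, 2707 in full), 1862 (intercalated-like minus distal convoluted tubule-like, 3785), 1503 (principal-like minus distal convoluted tubule-like, 2791), 862 (distal convoluted tubule-like minus loop of Henle-like, 1634), 2752 (loop of Henle-like minus proximal tubule-like, 4961), 407 and 278 (cluster 8 minus intercalated-like, 745, and minus principal-like, 759) and 193 (type A minus type B, 813, with 2 of the 10 genes). Without the replicate block, the counts were 1068 for distal convoluted tubule-like minus loop of Henle-like and 338 for type A minus type B, with 2 of the 10 genes called between the types. With at least 20 cells a sum, 334 and 406 genes were called for cluster 8 minus intercalated-like and minus principal-like. DESeq2 called 395 genes and 3 of the 10 for type A minus type B. Fitted on the compared clusters alone, cluster 8 minus intercalated-like called 5 of the 10. Leaving out each library in turn gave 504 to 765 genes for cluster 8 minus principal-like and 3 to 6 of the 10 for type A minus type B.

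Changes of sign were as follows. Hoxb7, intercalated-like minus distal convoluted tubule-like, was -0.013 by DESeq2, -0.0025 with its size factors, -0.028 without the highest doublet scores, and -0.13 to 0.14 on leaving out libraries. Gata3 in that comparison was 0.036 when thinned, and -0.16 to 0.021 on leaving out libraries. For principal-like minus distal convoluted tubule-like, Esrrg was 0.21 when thinned, and Tfap2b was -0.0045 without the highest doublet scores and -0.0090 to 0.19 on leaving out libraries. Hoxb7, cluster 8 minus intercalated-like, was -0.13 with no filter, -0.45 with at least 20 cells, -0.00047 without the block, -0.19 when thinned, -0.022 on the compared clusters alone, and -0.22 to 0.44 on leaving out libraries. For cluster 8 minus principal-like, Esrrg was -0.025 with no filter, -0.13 with at least 20 cells, -1.38 when thinned and -0.17 to 0.39 on leaving out libraries, and Tfcp2l1 was -0.011 to 0.27 on leaving out libraries. Foxi1, type A minus type B, was -0.049 with no filter, -0.021 without the block, -0.00024 with types split at 3 times the UMIs, and -0.11 to 0.068 on leaving out libraries.

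Shares of cells with a UMI, averaged over libraries, followed the depth kept. At 700 UMIs a cell they were 4.08% (Dmrt2) and 3.30% (Esrrg) in cluster 7, 48.6% (Tfcp2l1) in cluster 8, 14% (Tfap2b) in cluster 4, 11.9% (Gata3), 3.61% (Hoxb7) and 9.07% (Ehf) in cluster 6 and 21.0% (Hoxd8) in cluster 5. Unthinned they were 84.8% (Foxi1) and 99.4% (Tfcp2l1) in cluster 8, 46.2% (Hmx2), 18.7% (Dmrt2) and 18.4% (Esrrg) in cluster 7, 39.1% (Tfap2b) in cluster 4, 47.3% (Gata3), 22.4% (Hoxb7) and 35.8% (Ehf) in cluster 6 and 48.6% (Hoxd8) in cluster 5. Dmrt2, Esrrg, Gata3 and Hoxb7 did not pass the filter in the thinned fit of type A and type B cells.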

Other observations

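Cells with and without a UMI of a gene were set side by side inside the distal clusters, a comparison added after values had been seen and given as a description, since cells with a UMI are deeper. Only cells of at least 1000 UMIs, thinned to 1000, entered, and means are over libraries with at least 5 cells of each kind. Cluster 5 had 90 such cells with an Ehf UMI (median 3228 UMIs) and 7981 without one (median 2559 UMIs), counted over all libraries, and 4 libraries gave means. Of the distal convoluted tubule markers, the sodium chloride cotransporter gene Slc12a3 was at 1538 ± 522 CPM with an Ehf UMI, against 3157 ± 501 CPM without one (SD), and Pvalb at 124 ± 91.6 CPM, against 515 ± 131 CPM, each lower in 4 of 4 libraries. Calb1 was at 3560 ± 311 CPM, against 2920 ± 451 CPM, higher in 3 of 4, and Trpm6 was higher in 2 and lower in 2. Of the principal markers, Hsd11b2, the enzyme gene that shields the mineralocorticoid receptor, was at 742 ± 557 CPM, against 84.5 ± 60.8 CPM, higher in 4 of 4. Aqp2, Scnn1b and Scnn1g were higher in 3 of 4, Fxyd4 in 2 of 4 and Avpr2 in 1 of 4.

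The 1222 distal convoluted tubule-like cells with a Gata3 UMI (median 3477 UMIs) had 4370 ± 942 CPM of the calcium-binding protein gene Calb1, against 3146 ± 744 CPM in the 6849 cells without one (median 2419 UMIs), and 3910 ± 919 CPM of Slc12a3, against 3181 ± 342 CPM, each higher in 7 of 7 libraries. Trpm6 was higher in 5 of 7, and Pvalb was at 1330 ± 1484 CPM, against 1518 ± 1626 CPM, lower in 5 of 7. Umod was at 1466 ± 993 CPM, against 1899 ± 1208 CPM, lower in 7 of 7. Of the principal markers, Scnn1b was higher in 6 of 7, Hsd11b2 and Scnn1g in 5, Aqp2 in 3, Fxyd4 in 2 and Avpr2 in 1. The rise of Slc12a3 was not particular to Gata3. Slc12a3 was also higher in 7 of 7 libraries with a Tfap2b UMI (3964 ± 664 CPM, against 3054 ± 332 CPM) and with a Hoxd8 UMI (3661 ± 444 CPM, against 2886 ± 546 CPM). Calb1 was higher in 4 of 7 with a Tfap2b UMI and in 6 of 7 with a Hoxd8 UMI. In loop of Henle-like cells, the 111 cells with an Ehf UMI had 5931 ± 2202 CPM of Umod, against 8704 ± 1859 CPM in the 1378 without one, lower in 7 of 7 libraries. Cldn16 and Cldn19 were lower in 6 of 7, Slc12a1 was at 4578 ± 1130 CPM, against 4085 ± 572 CPM, higher in 5 of 7, and Cldn10 was higher in 3 of 7. Median depths were 2562 UMIs with an Ehf UMI and 2245.5 UMIs without one. Much of this pattern was also seen with a Tfap2b UMI. There Umod and Cldn19 were lower in 6 of 7 libraries and Slc12a1 was higher in 7 of 7. Cldn16, in contrast, was higher in 6 of 7, and Cldn10 was higher in 2 of 7.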
